A study of Homo sapiens with 2 samples.

Results

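Caveolins and cavins build caveolae, and the 5 genes described here are CAV1, CAV2, CAVIN1, CAVIN3 and EHD2, out of 33538 human genes listed. They were chosen by symbol, with their levels in these libraries already known, so the levels and ratios are a description without a test. UMI counts (unique molecular identifiers, 1 per captured transcript molecule) came from single cells of UMUC3, a human bladder carcinoma line. Of the 2 libraries, 1 was labelled as a knockdown of GANAB and the other as control UMUC3. GANAB encodes the catalytic subunit of glucosidase II, which trims glucose from new N-glycans in the endoplasmic reticulum. Both sets of cells were transplanted into the bladders of C57 nude mice, immunodeficient animals, and grown there for 14 days before capture with a 10x 3' kit. The labels do not say how the knockdown was made, which vector the control cells carried, or how many mice were used. With 1 library per group, the knockdown, the animal, the cells injected and the library preparation cannot be told apart.

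Caveolae are small, cholesterol-rich pits of the plasma membrane that flatten when the membrane is stretched. Caveolin oligomers lie in the inner leaflet of the membrane, and a coat of cavin proteins binds them from the cytoplasm. Bladder muscle, endothelium, fibroblasts and adipocytes are rich in caveolae, and many carcinoma lines also make caveolins.

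A barcode was taken as a cell with at least 15000 UMIs and at most 20% mitochondrial UMIs, which left 2672 cells in the knockdown library and 4385 in the control library. Their median depth was 40933 UMIs in knockdown cells and 44046 in control cells. The label check held for GANAB, which had 42.3 CPM (counts per 1000000 UMIs, summed over cells) in knockdown cells, against 127 CPM in control cells. The antisense transcript TMEM132D-AS1 parted the libraries: 72.7% of knockdown cells and 5.50% of control cells had at least 2 UMIs of it. Those 1942 knockdown and 241 control cells are called marked cells below, and the 616 knockdown and 4102 control cells with 0 UMIs unmarked cells. GANAB had 38.1 CPM in marked knockdown cells, against 130 CPM in marked control cells, so the marked control cells did not carry the low GANAB level. Only 4 cell barcodes occurred in both libraries, and none of them belonged to a marked control cell.

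All 5 genes stand on human chromosomes of the GRCh38 build, by the GENCODE release 29 annotation. CAV1 (ENSG00000105974) lies on the plus strand at chr7:116524785-116561184. CAV2 (ENSG00000105971) lies beside it on the same strand at chr7:116287380-116508541, a span that includes a long alternative transcript, and its RefSeq start is 25047 bases before the GENCODE start of CAV1. CAVIN1 (ENSG00000177469) lies on the minus strand at chr17:42402452-42423517, and CAVIN3 (ENSG00000170955) on the minus strand at chr11:6318946-6320647. EHD2 (ENSG00000024422) lies on the plus strand at chr19:47713343-47743134. Antisense genes overlap CAV2, CAV1 and CAVIN3, and the strand setting of the counting was not given in the sources used here. AC002066.1, AC006159.1 and AC068733.3, those overlapping genes, had 48, 1 and 1 UMIs in knockdown cells, against 42, 1 and 2 in control cells.

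The neighbours CAV1 and CAV2 varied together from cell to cell, as described below, and short stretches from before their starts are therefore shown. Each is 30 bases long and was taken around the first spot with the highest number of GC boxes per 30 bases, 2 for CAV2 and 1 for CAV1, among the 250 bases before the first RefSeq start (GRCh38.p14). Other stretches of these windows hold as many. Both are read on the plus strand, and capitals mark the GC boxes. The CAV2 stretch is chr7:116499564-116499593, from 174 to 145 bases before the start, and the CAV1 stretch is chr7:116524817-116524846, from 192 to 163 bases before its own RefSeq start. Both stretches lie within the GENCODE spans of the genes given above, which start further upstream than RefSeq does.
CAV2: gggaggtGGGCGGggagGGGCGGcggggcg
CAV1: tgcgggcgctccCCGCCCtctgctgccaga
A GC box, the sequence bound by Sp1-type factors, was searched as GGGCGG on both strands. The whole 250-base window of CAV2 held 6 matches, and that of CAV1 held 3. At least 1 match occurred in 42.6% of 35116 RefSeq windows of that length. The CAV2 window was 83.2% G or C and held 35 CpG, and the CAV1 window was 63.6% G or C and held 18 CpG. The medians over all windows were 58% and 11 CpG. Neither window held GGAATG (a TEAD motif, in 11.9% of windows), TGANTCA (an AP-1 motif, in 6.57%) or TCACNCCAC (a sterol response motif, in 0.883%), and no matches overlapped. A match is a run of letters and no measure of binding.

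Over all cells, CAV1, CAV2 and CAVIN1 were higher in the knockdown library, CAVIN3 was lower by less than 1.5-fold, and EHD2 was near 0 in both. A gene was counted as measured with at least 10 CPM in either set of cells, and as past the size rule when its CPM also differed by at least 1.5-fold. Of the 5 genes, 4 were measured, 3 passed the rule as higher and 0 as lower. Among all 7872 measured genes, 7.69% were higher and 10.4% lower by that rule, and the median log2 ratio was -0.07, against 0.95 for the 4 measured members. The members were chosen on this contrast, so nothing is read from their count.

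CAV1, the caveolin that shapes the pit, had 1127 CPM (95% interval 1121 to 1133, 149568 UMIs) in knockdown cells, against 341.6 CPM (339.1 to 344.1, 73162 UMIs) in control cells. All intervals on CPM are exact Poisson intervals, those on ratios are exact conditional binomial intervals, and they cover counting error only, not the spread between animals or libraries. The log2 ratio was 1.72 (1.71 to 1.74), a 3.30-fold higher level, larger than that of 98.9% of measured genes. CAV2, which joins CAV1 in mixed oligomers and needs it to reach the cell surface, had 141.3 CPM in knockdown cells and 63.7 CPM in control cells, 2.22-fold higher (log2 ratio 1.15, 1.12 to 1.18). The ratio was smaller for CAV2 than for CAV1, with 7.98 CAV1 UMIs per CAV2 UMI in knockdown cells and 5.36 in control cells.

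CAVIN1, the coat protein without which caveolae do not form, had 443.4 CPM in knockdown cells and 265.0 CPM in control cells, 1.67-fold higher (log2 ratio 0.74, 0.73 to 0.76). CAVIN3, a coat subunit that also binds protein kinase C delta, went the other way, with 139.3 CPM in knockdown cells and 194.7 CPM in control cells. Its log2 ratio was -0.48 (-0.51 to -0.46), 1.40-fold lower, and it did not pass the size rule. EHD2, the ATPase that sits at the neck of the pit and holds it at the surface, had 24 UMIs (0.181 CPM) in knockdown cells and 339 UMIs (1.58 CPM) in control cells. Both levels of EHD2 were far below the 10 CPM minimum, and its log2 ratio was -3.13 (-3.79 to -2.53).

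**Figure D1:**
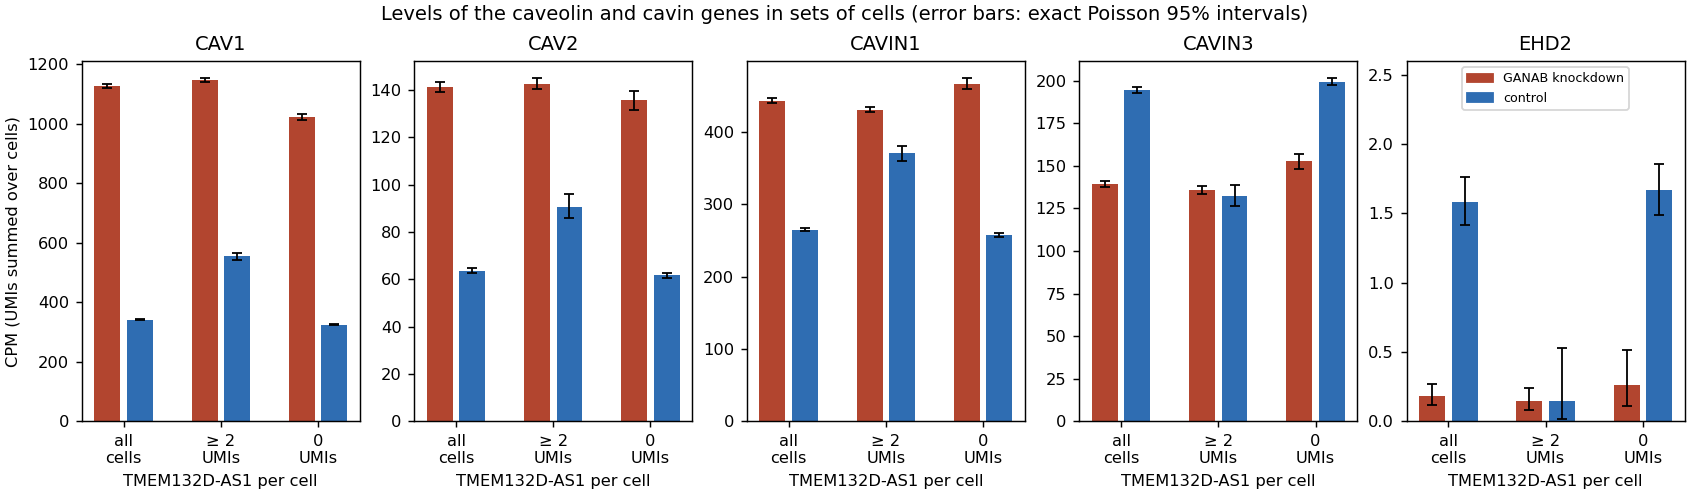
CPM of the 5 genes (vertical axes, 1 scale per gene) over all cells, marked cells (at least 2 UMIs of TMEM132D-AS1) and unmarked cells (0 UMIs), knockdown left of control in each pair, with exact Poisson 95% intervals. The CAV1 bars of the knockdown library stand between 1022 and 1146 CPM and those of the control library between 325.2 and 554.3 CPM, and the CAVIN3 bars of the marked cells are at 135.7 and 132.5 CPM.

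Within the marked cells, the caveolins still differed between the libraries, and the cavins differed little or not beyond counting error. CAV1 had 1146 CPM (1140 to 1153) in marked knockdown cells, against 554.3 CPM (541.9 to 566.9) in marked control cells, 2.07-fold higher. CAV2 had 142.6 CPM in marked knockdown cells and 90.8 CPM in marked control cells, 1.57-fold higher. Its log2 ratio of 0.65 (0.57 to 0.74) spans the 1.5-fold line. The call was lost in cells with fewer than 2 UMIs of foreign markers, genes of other cell types described below (0.58). It was also lost in cells with 0 UMIs of TOP2A and MKI67 (0.57). CAVIN1 had 431.1 and 370.6 CPM in the same order of cells, with a log2 ratio of 0.22 (0.18 to 0.26) that did not reach 1.5-fold. The CAVIN3 levels of 135.7 CPM in marked knockdown cells and 132.5 CPM in marked control cells overlapped in their intervals, with a log2 ratio of 0.03 (-0.04 to 0.11). EHD2 had 14 UMIs in marked knockdown cells and 2 in marked control cells, or 0.143 and 0.146 CPM, too few to compare. Thus 2 of the 5 genes passed the rule as higher and 0 as lower, where 3.58% of 7720 measured genes were higher and 4.59% lower, with a median log2 ratio of -0.09. The CAV1 difference was present in marked cells both without and with UMIs of the proliferation genes TOP2A and MKI67. Marked cells with 0 UMIs of both had 1291 CPM of CAV1 in the knockdown library and 713.8 CPM in the control library. Those with at least 2 UMIs had 954.5 and 481.4 CPM in that order. They numbered 657 of the 1942 marked knockdown cells and 131 of the 241 marked control cells. The CAV1 ratio over all marked cells was not corrected for this mix, and its log2 value was 0.85 in cells with 0 UMIs, beside 1.05.

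Inside the control library alone, the marked cells differed from the unmarked ones in all 5 genes, each in the direction in which the libraries differed over all cells. CAV1 had 554.3 CPM in marked and 325.2 CPM in unmarked control cells, 1.70-fold higher. CAV2 had 90.8 CPM in marked and 61.7 CPM in unmarked control cells, 1.47-fold higher and thus just short of the rule. CAVIN1 was also just short, at 370.6 CPM in marked and 257.6 CPM in unmarked control cells, 1.44-fold higher. CAVIN3 was 1.51-fold lower and just past the rule, at 132.5 CPM in marked cells and 199.5 CPM in unmarked cells. Its log2 ratio of -0.59 (-0.66 to -0.52) spans the 1.5-fold line. The call was lost at a minimum of 30000 UMIs (-0.57), when median centred (-0.58) and at a gate of 1 UMI (-0.58). It was also lost without the deepest 5% of cells (-0.58) and in cells with fewer than 2 UMIs of foreign markers (-0.56). EHD2 had 2 UMIs (0.146 CPM, 0.018 to 0.528) in marked control cells, against 331 UMIs (1.67 CPM, 1.49 to 1.86) in unmarked ones. The 5 genes therefore gave 1 call as higher and 1 as lower, where 4.65% of 7748 measured genes were higher and 4.47% lower. These sets of cells come from 1 library, so its preparation is shared by both, but they are not replicates. The marked control cells were also deeper, with a median of 51552 UMIs against 43787 in unmarked ones.

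In the knockdown library, marked and unmarked cells differed by at most 1.13-fold in the 4 measured genes. CAV1 had 1146 CPM in marked and 1022 CPM in unmarked knockdown cells, and CAV2 had 142.6 and 135.6 CPM in that order. CAVIN1 had 431.1 CPM in marked and 466.7 CPM in unmarked knockdown cells, and CAVIN3 had 135.7 and 152.7 CPM in that order. None of the 5 genes passed the rule, where 0.382% of 7584 measured genes were higher and 0.752% lower. Between the unmarked cells of the libraries, CAV1 had 1022 CPM in knockdown cells and 325.2 CPM in control cells, 3.14-fold higher, CAV2 was 2.20-fold higher and CAVIN1 1.81-fold higher. That gave 3 calls as higher and 0 as lower among the 5, where 7.46% of 7867 measured genes were higher and 8.53% lower. GANAB had 55.3 CPM in unmarked knockdown cells and 126 CPM in unmarked control cells.

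**Figure D2:**
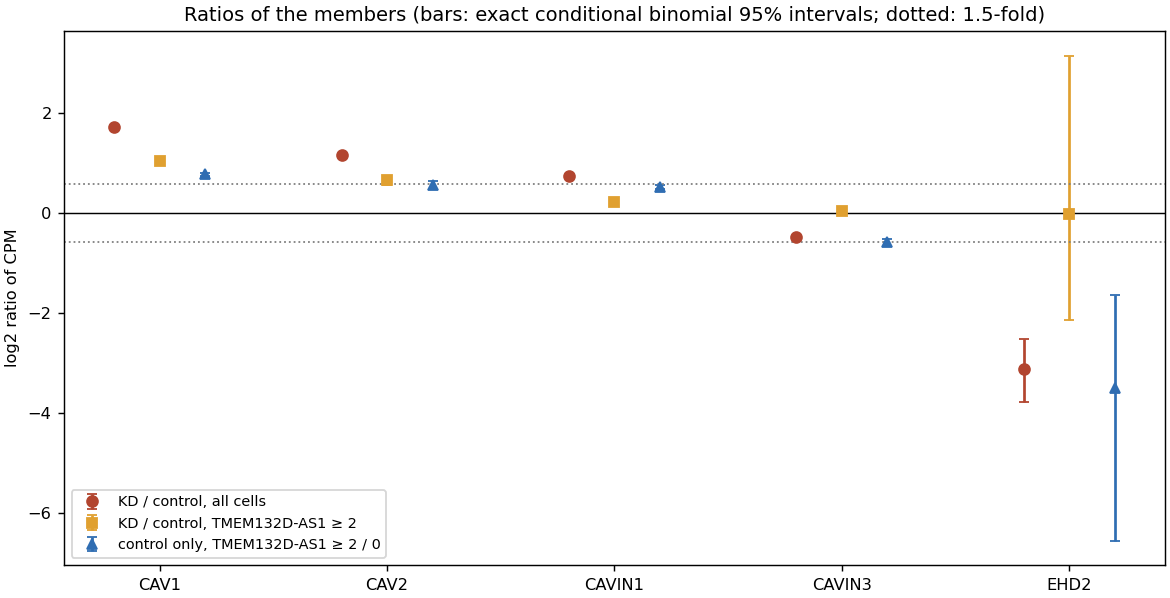
Log2 ratios of CPM (vertical axis) of the 5 genes for knockdown over control in all cells (circles), the same in marked cells (squares), and marked over unmarked cells of the control library (triangles), with exact conditional binomial 95% intervals and dotted lines at 1.5-fold. The CAV1 ratio is 1.05 in marked cells, against 1.72 in all cells, and the EHD2 intervals are wide because few UMIs were counted.

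Cells were compared one by one after each was thinned at random to 15000 UMIs. The median knockdown cell then had 12 CAV1 UMIs (quartiles 7 and 23) and the median control cell had 4 (quartiles 2 and 7). The distributions overlapped, yet 42.7% of knockdown cells lay above the 95th percentile of control cells, and 6.20% of control cells lay above the knockdown median. Of the marked control cells, 19.1% lay above that median. The SD of CAV1 over cells was 0.92 times its mean in knockdown cells and 0.98 times in control cells, and in marked cells 0.91 times in the knockdown library and 0.85 times in the control library, counting noise included. The highest cell had 125 CAV1 UMIs in the knockdown library and 60 in the control library.

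The other members overlapped more between the libraries. CAV2 had a median of 2 UMIs in knockdown and 1 in control cells, and CAVIN1 a median of 5 in knockdown and 3 in control cells. Both marked sets had a CAVIN1 median of 5 UMIs, and CAVIN3 had a median of 2 UMIs in both libraries. At least 1 thinned UMI of CAV2 was found in 80.3% of knockdown cells (Clopper-Pearson 95% interval 78.7 to 81.8) and 55.8% of control cells (54.4 to 57.3), and without thinning in 94.4% and 85.3% in that order. For CAV1 the thinned shares were 98.1% in knockdown and 92.4% in control cells, for CAVIN1 95.2% and 92.7%, for CAVIN3 79.9% and 85.7%, and for EHD2 0.449% and 2.69%, each with knockdown cells first. No cell type that lacks these genes was set apart here, so barcodes of 10 to 100 UMIs served as the measure of free RNA. In those barcodes CAV1 had 698 CPM in the knockdown library and 269 CPM in the control library, and CAV2 had 108 and 63.3 CPM in that order. EHD2 had 0.457 CPM (2 UMIs) there in the knockdown library and 2.36 CPM (12 UMIs) in the control library, levels no lower than over all cells. Within the control library, an EHD2 UMI was found without thinning in 0.830% of marked cells (0.101 to 2.97) and 7.24% of unmarked cells (6.47 to 8.08). The marked share rests on 2 UMIs, and the part of free RNA in the EHD2 counts was not tested.

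**Figure D3:**
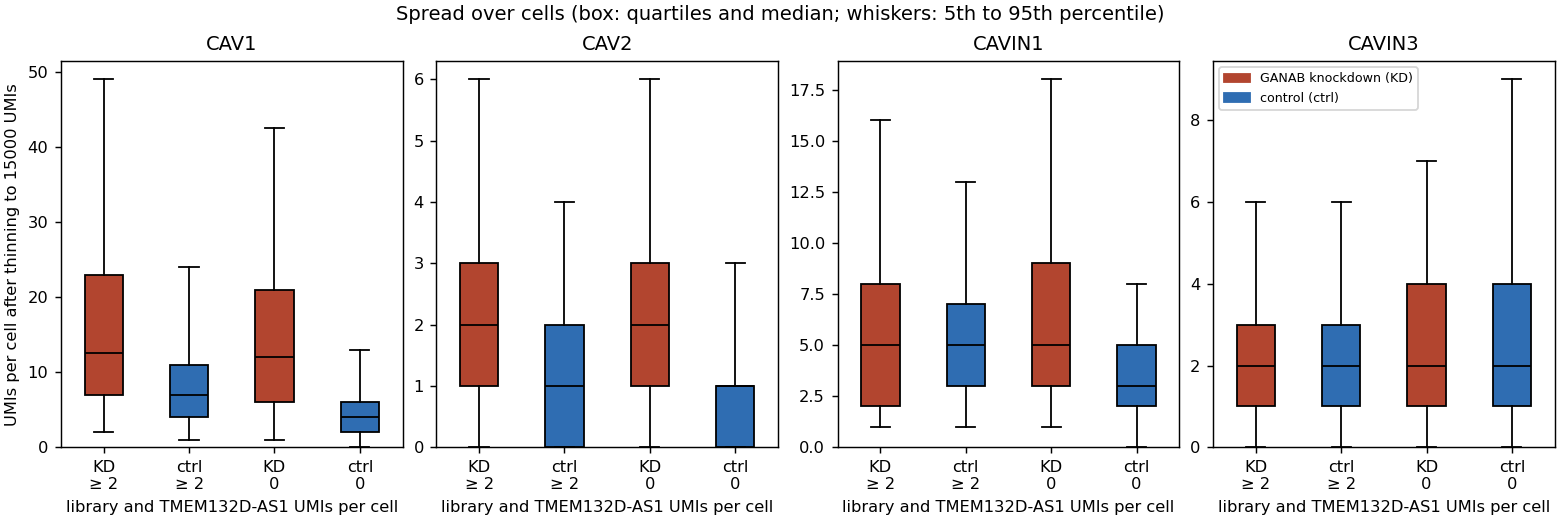
UMIs per cell after thinning to 15000 UMIs (vertical axes) for marked and unmarked cells of both libraries, knockdown left of control in each pair, with boxes at the quartiles and median and whiskers from the 5th to the 95th percentile. The CAV1 medians are 12.5 UMIs in marked knockdown and 7 in marked control cells, and the CAVIN3 medians are 2 UMIs in all 4 sets.

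Across cells within a library, CAV1 and CAV2 varied together more than any other pair of members did. On log2(thinned UMIs + 1), their Pearson r was 0.46 over the 2672 knockdown cells and 0.31 over the 4385 control cells. With each cell scaled to 10000 UMIs instead of thinned, this r was 0.60 in knockdown and 0.51 in control cells. CAV1 and CAVIN1 had an r of 0.32 in knockdown cells and 0.15 in control cells. Pairs with CAVIN3 had an r between -0.10 and 0.09 in either library. Cells of a library share its preparation, and in sparse counts a weak r is not a finding. Among 2216 other genes with at least 50 CPM in both libraries, those most like CAV1 by mean r were DSTN, an actin-severing protein (r of 0.50 in knockdown and 0.15 in control cells), ATP1B3 (0.41 and 0.19), TES (0.39 and 0.18), S100A10 (0.41 and 0.14) and VIM (0.33 and 0.23). DSTN itself had 1247 CPM in knockdown and 1381 CPM in control cells, and S100A10, the annexin A2 partner, had 3063 and 902 CPM in that order. The 5 genes most like CAVIN1 were ENO1, CCND1, KPNB1, RTN4 and TPM3, with r values of 0.21 to 0.29 in either library. Those values were weak, as were the control r values of 0.14 to 0.23 for the 5 genes most like CAV1.

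CAV1 and CAVIN1 differed with cycling state and depth in different ways. Cells with at least 2 UMIs of TOP2A and MKI67 made up 35.6% of knockdown and 50.1% of control cells. In the knockdown library, cells with at least 2 UMIs of TOP2A and MKI67 had 932 CPM of CAV1 and 490 CPM of CAVIN1, against 1296 and 379.9 CPM in cells with 0 UMIs. In the control library, CAV1 had 336.7 CPM in cycling and 341.5 CPM in non-cycling cells, and CAVIN1 had 291 and 211 CPM in that order. Cycling cells were also deeper, with a median of 64436 UMIs against 32649 in the knockdown library and 57113 against 33438 in the control library. With the cells of each library split by depth into 3 sets of equal size, CAVIN1, from the shallowest set to the deepest, had 346, 410 and 488 CPM in the knockdown library and 193, 254 and 297 CPM in the control library. CAVIN3 ran downwards over the same sets, at 155, 143 and 133 CPM in the knockdown library and 230, 209 and 174 CPM in the control library. CAV1 was highest in the middle set of both libraries, at 1304 CPM in the knockdown library and 362 CPM in the control library.

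**Figure D4:**
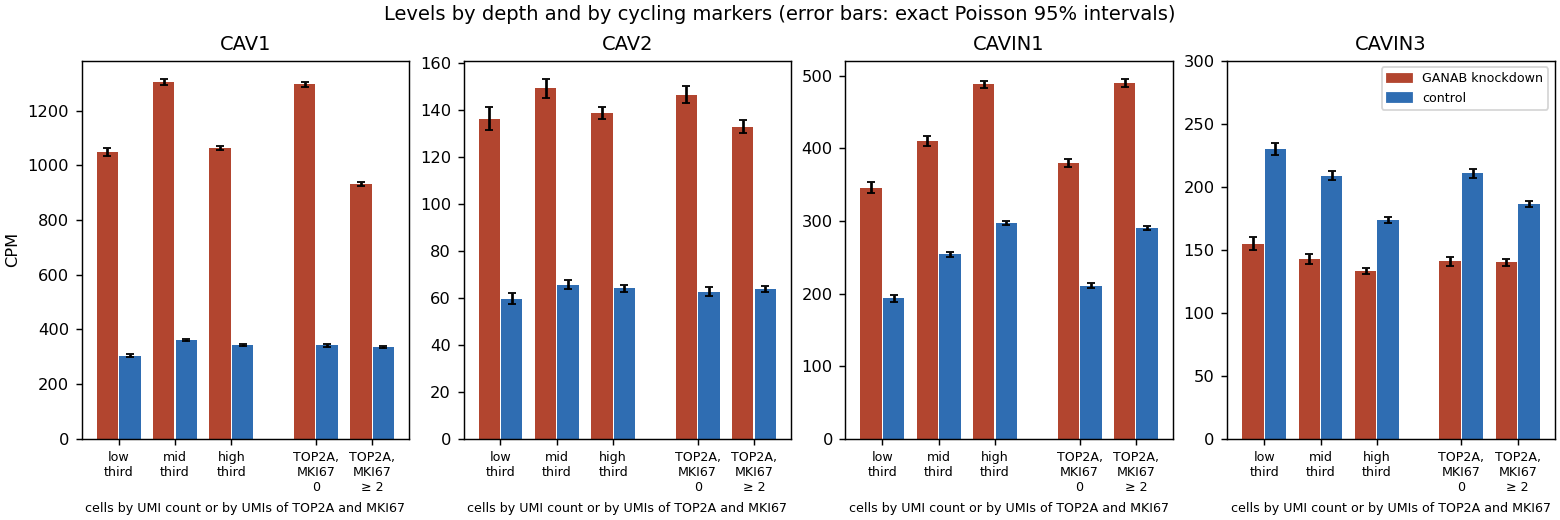
CPM of CAV1, CAV2, CAVIN1 and CAVIN3 (vertical axes) in the 3 sets of cells by UMI count and by UMIs of TOP2A and MKI67, knockdown left of control, with exact Poisson 95% intervals. CAV1 is higher in knockdown than in control cells in every class shown, from 932 to 1304 CPM in knockdown and from 303 to 362 CPM in control cells.

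Within the knockdown library, the CAV1 level differed little with the GANAB count of the cell. The 1508 knockdown cells with 0 thinned GANAB UMIs had 1140 CPM of CAV1, and the 345 cells with at least 2 had 1123 CPM. The level of 42.3 CPM leaves under 1 GANAB UMI per thinned knockdown cell on average, so this split sorts cells only loosely. Knockdown cells with at least 5 thinned UMIs of the interferon genes IFIT1 to IFIT3 had 1128 CPM of CAV1, against 1034 CPM in those with 0.

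Markers of other cell types that carry caveolae had low summed counts. The adipocyte list summed to 0.038 CPM in knockdown cells and 0.019 CPM in control cells, with ADIPOQ at 0 in both. Of the endothelial list, PECAM1 had 0.045 CPM in knockdown and 0.070 CPM in control cells, CDH5 0.256 and 0.009, and VWF 0.015 and 0.019, while ENG made up most of the sums of 30.5 and 19.9 CPM. The 8 fibroblast genes summed to 10.7 CPM in knockdown and 14.9 CPM in control cells, with DCN and LUM at 0 in both. The 9 smooth muscle and pericyte genes summed to 16.4 and 13.3 CPM, mostly ACTA2. Foreign markers per cell were counted from a fixed set of such genes that held ACTA2 but not ENG, CD68 or G0S2. At least 2 UMIs of them were found in 322 knockdown cells (12.1%) and 643 control cells (14.7%). Those cells had 1282 CPM of CAV1 in the knockdown library and 299.7 CPM in the control library. Cells under 2 had 1101 and 350.3 CPM in that order. In cells under 2, the CAV1 log2 ratio was 1.65, beside 1.72 over all cells. Macrophage genes summed to 25.1 and 26.8 CPM, nearly all CD68, neutrophil genes to 67.6 and 130 CPM, nearly all G0S2, T and NK cell genes to 0.023 and 0.079 CPM and erythroid genes to 0.633 and 1.22 CPM, each with knockdown cells first. Of the 12 UMUC3 markers, 11 were measured, 3 were higher and 2 lower, where 7.69% and 10.4% of all measured genes were. Their median log2 ratio was 0.15. VIM had 5697 CPM in knockdown and 3548 CPM in control cells, and CCND1 had 498 and 772 CPM in that order. In marked cells 10 of the 12 were measured, 1 was higher and 1 lower, where 3.58% and 4.59% of all measured genes were. Mouse transcripts counted on human genes were not tested for.

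On chromosome 7, TES, a focal adhesion protein gene whose start lies at -314 kb from that of CAV1, stood apart from the other neighbours in the same direction as CAV1. It had 133 CPM in knockdown cells and 50.4 CPM in control cells, a log2 ratio of 1.40, and 132 and 73.4 CPM in marked cells of the libraries. Of the 4 measured genes that start within 1 Mb of CAV1, other than CAV2, the remaining ones were MET, CAPZA2 and ST7, with log2 ratios of 0.08, -0.21 and -0.25 over all cells. Around CAVIN1 on chromosome 17, 5 of 33 measured genes were higher and 1 lower in knockdown cells, with a median log2 ratio of 0.26, where 7.69% of all measured genes were higher and 10.4% lower. In marked cells these were 1 higher and 4 lower of 34, with a median of -0.10, where 3.58% and 4.59% of all measured genes were higher and lower. STAT3, the nearest measured neighbour of CAVIN1, had a log2 ratio of 0.51 over all cells and 0.02 in marked cells. The 8 measured genes around CAVIN3 on chromosome 11 gave no call in either comparison, with a median of 0.02 over all cells. Around EHD2 on chromosome 19 the 24 measured genes gave 3 calls as higher and 0 as lower over all cells, with a median of 0.14. The shares over all measured genes were 7.69% and 10.4%. In marked cells 2 of 24 were higher and 0 lower, where 3.58% and 4.59% of all measured genes were, with a median of 0.14.

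**Figure D5:**
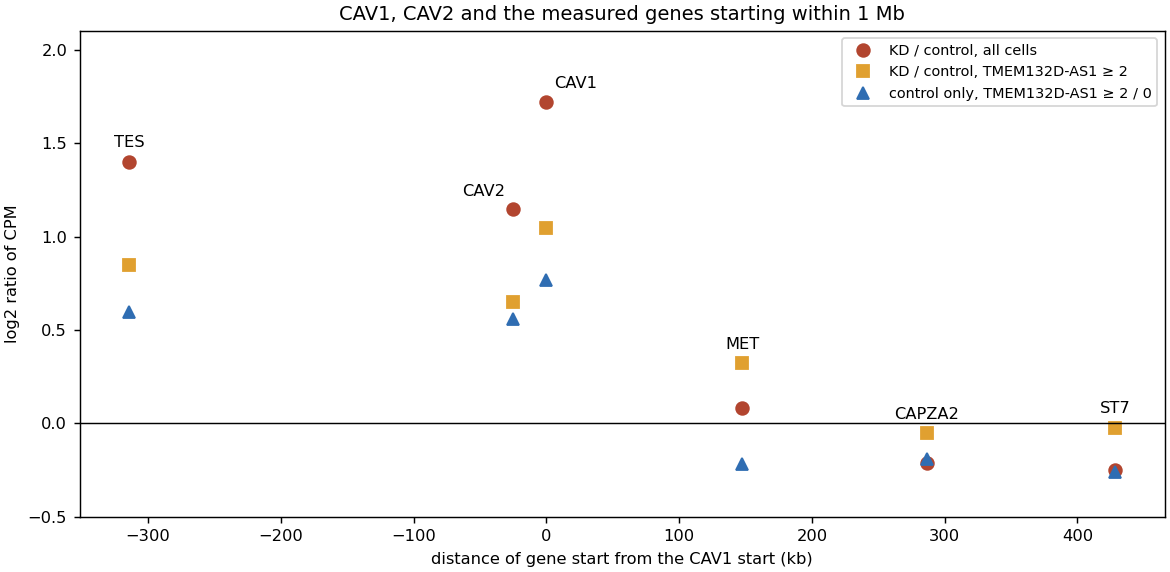
Log2 ratios of CPM (vertical axis) of CAV1, CAV2 and the measured genes that start within 1 Mb, against the distance of their start from the CAV1 start in kb, for knockdown over control in all cells (circles) and marked cells (squares) and for marked over unmarked control cells (triangles). TES, CAV2 and CAV1 lie above 0.5 in all 3 comparisons, and MET, CAPZA2 and ST7 lie between -0.26 and 0.32.

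Among the measured genes of other caveolar proteins, only ROR1 passed the size rule over all cells. Of 10 such genes 5 were measured, 1 was higher and 0 lower, where 7.69% and 10.4% of all measured genes were. Their median log2 ratio was -0.05, beside -0.07 for all measured genes. ROR1, a receptor that also scaffolds caveolin and cavin, had 23.4 CPM in knockdown and 7.31 CPM in control cells, but 25.1 and 19.7 CPM in marked cells. Within the control library ROR1 had 19.7 CPM in marked and 6.40 CPM in unmarked cells. EHD1 had 24.9 CPM in knockdown and 20.2 CPM in control cells, and EHD4 had 10.7 and 13.1 CPM, both ATPases related to EHD2. The membrane-bending PACSIN2 had 10.6 CPM in knockdown and 11.0 CPM in control cells, and PACSIN3 had 12.2 and 17.5 CPM. CAV3 (0 and 6 UMIs), CAVIN2 (8 and 6), PACSIN1 (5 and 3), CAVIN4 (160 and 243) and EHD3 (259 and 453 UMIs) fell short of 10 CPM in both libraries, with knockdown cells given first.

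Genes of the routes and partners around caveolae were called at shares to be read beside 7.69% higher and 10.4% lower over all measured genes, and 3.58% and 4.59% in marked cells. Of 20 clathrin coat and adaptor genes, the main alternative route of uptake, 18 were measured, 1 was higher and 1 lower, with a median log2 ratio of 0.01. CLTB, a clathrin light chain, had 144 CPM in knockdown and 90.9 CPM in control cells, and the other light chain CLTA had 280 and 422 CPM. In marked cells neither passed the rule. Of 13 genes that anchor caveolae to actin or cut them off, 11 were measured, with 0 calls as higher, 2 as lower and a median of -0.29. ABL2, a kinase that acts on the actin cortex, had 41.8 CPM in knockdown and 86.0 CPM in control cells, and the motor MYO1C had 75.4 and 119 CPM. In marked cells ABL2 was the gene of this list past the rule, at 39.2 CPM in knockdown and 65.7 CPM in control cells, while filamin A (FLNA) had 278 and 307 CPM over all cells.

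YAP and TEAD targets, a stretch-responsive program, went both ways. Of 20 such genes 13 were measured, 3 were higher (CRIM1, AMOTL1 and AXL) and 2 lower (CCN2 and FJX1), with a median log2 ratio of -0.21. CRIM1 had 92.3 CPM in knockdown and 46.1 CPM in control cells. CCN2 had 77.0 CPM in knockdown and 116 CPM in control cells, and in marked cells 76.9 and 184 CPM. NT5E was the other lower gene of this list in marked cells, at 187.5 CPM in knockdown and 307.8 CPM in control cells, and none was higher there.

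Of 21 genes for caveola cargo and caveolin partners 15 were measured, 2 were higher and 0 lower, with a median log2 ratio of 0.04. Those were the TGF-beta receptor genes TGFBR1 (25.5 CPM in knockdown and 14.7 CPM in control cells) and TGFBR2 (48.2 and 25.1 CPM). In marked cells TGFBR2 had 49.5 CPM in the knockdown library and 51.0 CPM in the control library, and no gene of the list passed the rule. ITGB1, an integrin subunit, had 797 CPM in knockdown and 717 CPM in control cells.

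Of the 7 flotillins and related scaffolds, 6 were measured, 1 was higher and 0 lower. That gene, STOM, had 30.3 CPM in knockdown and 11.2 CPM in control cells, and 28.7 and 33.9 CPM in marked cells, so its direction differed between the comparisons. FLOT1, which scaffolds membrane domains apart from caveolae, had 65.7 CPM in knockdown and 79.1 CPM in control cells. Within marked cells all 7 genes were measured, 0 were higher and 1 other than STOM was lower, with a median log2 ratio of -0.17.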

How the data were processed

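UMI counts per gene and barcode were deposited by the authors as raw count matrices, made with Cell Ranger 3.1.0 on GRCh38 per the submitters' processing notes. Each of the 2 libraries lists 6794880 barcodes and 33538 human genes, with 155064055 UMIs in the knockdown library and 239857346 in the control library. The notes used here do not say whether mouse reads were removed. Cells were barcodes with at least 15000 UMIs and at most 20% mitochondrial UMIs, and doublets were not removed. UMIs were summed per set of cells and divided by the summed total (CPM), with Python 3.11.15, numpy 2.4.6, scipy 1.17.1 and pandas 2.3.3. With 1 library per group no test was made. A gene with 0 UMIs in a set had 0.5 counts added for ratios. The code was tested on simulated data with known changes. Of the genes, 33456 matched GENCODE release 29 by identifier. CCN1 and CCN2 stand in the files under older symbols and were matched by identifier.

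The members, lists and comparisons were chosen with earlier results of these data known. The text names all members, all caveolar proteins beyond them, the 5 genes most like CAV1 and CAVIN1, chromosome neighbours, and from each other list genes out of its 4 highest and its most extreme ratios. AMOTL1, AXL and TGFBR1 were named to spell out small counts after their values were seen. A list of membrane lipid genes is not reported here. The comparisons of marked with unmarked knockdown cells, and of unmarked cells between libraries, were added after seeing the data. Alternatives changed the UMI and mitochondrial limits, scaling, thinning, cycling state, the 10 CPM minimum, the fold and the gate. Others removed the deepest 5% of cells, or the cells with 2 or more UMIs of foreign markers.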

Additional observations from a re-analysis of the deposited data

Results flagged for a closer look

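A signal appeared in barcodes that no comparison used, those of at least 1000 and fewer than 15000 UMIs (3624 in the knockdown library and 3952 in the control library), above its level in the control library. CAV1 had 479 CPM there in the knockdown library and 129 CPM in the control library. CAV2 had 84.0 and 33.6 CPM, and CAVIN1 had 294 and 161 CPM, with the knockdown library first. All 3 levels were below those in cells of their own library. In barcodes of 10 to 100 UMIs, the measure of free RNA, CAV1 had 698 and 269 CPM with the knockdown library first. CAV2 had 108 and 63.3 CPM there, and CAVIN1 had 268 and 191 CPM. EHD2 levels were taken in the barcodes of at least 1000 and fewer than 15000 UMIs, split by collagen UMIs. With at least 2 collagen UMIs, the 555 knockdown barcodes had 14.4 CPM (19 UMIs) and the 377 control barcodes 16.3 CPM (17 UMIs). With 0 collagen UMIs, EHD2 had 1.29 CPM in the knockdown library and 4.26 CPM in the control library. What these barcodes hold was not tested.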

How the results depend on the processing

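No paired analysis was possible because each group is 1 library and the labels give no replicate numbers. Over all cells, the count of 3 members past the size rule became 2 at a fold of 2 and 4 with no CPM minimum, and was 3 under the other alternatives tried. The count of 2 in marked cells became 1 without cells with 2 or more UMIs of foreign markers. It also became 1 in cells with 0 UMIs of TOP2A and MKI67, and at a fold of 2. The count of 2 for marked over unmarked control cells became 1 at a minimum of 30000 UMIs, 1 when median centred, 1 at a gate of 1 UMI, and 0 at a fold of 2, and 3 with the mean of per-cell CPM, in cells with 0 UMIs of TOP2A and MKI67 and with no CPM minimum. This count stayed 2 without the deepest 5% of cells, and without cells with 2 or more UMIs of foreign markers. In both settings CAV2 was called in place of CAVIN3. No ratio counted as past the rule changed sign. The log2 ratio of CAV1 ran from 1.65 to 1.92 over all cells and from 0.85 to 1.14 in marked cells. In marked cells CAV2 ran from 0.57 to 0.74, CAVIN1 from 0.16 to 0.38 and CAVIN3 from 0.01 to 0.16. EHD2 ran from -1.71 to 0.76 there and kept its sign in 7 of 12 settings, since 2 UMIs in marked control cells limit it. Of 280 alternative member ratios, 207 stayed within their counting interval and 73 moved beyond it. Counting error limits EHD2 most, and also the calls of CAV2 in marked cells and of CAVIN3 within the control library. The single library per group limits every member.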
